A study of Mus musculus with 8 samples.

Results

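The 10 genes described here are 7 matrix metalloproteinases, Mmp2, Mmp7, Mmp9, Mmp12, Mmp13, Mmp14 and Mmp25, and 3 of their tissue inhibitors, Timp1, Timp2 and Timp3, out of 22180 genes measured. They were taken by symbol from the probe sets whose platform annotation names a single gene, and together they have 11 probe sets, 2 for Mmp7 and 1 for each of the other 9 genes. For Mmp7 the brighter set, by its mean over the 8 arrays, stands for the gene, and both sets are shown. Mmp7 was chosen by its log2 difference in the comparison reported here, and the other genes were selected with that comparison known, so the differences of these 10 genes are given as a description.

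The RNA came from CD103+ CD11b+ conventional dendritic cells (cDC), sorted from lymph nodes of the mesentery. The donors were male C57BL6 mice, 8 weeks old and fed control chow. Of the 8 arrays, 4 hold cells of mice with the hBcl-2 transgene, human BCL2 driven by the CD11c promoter, and 4 hold cells of wild-type littermates. BCL2 keeps mitochondria from triggering apoptosis, and CD11c is an integrin chain of dendritic cells. Each array holds RNA pooled from 2 to 3 samples of a genotype, and n = 4 pools in either group. Which animals a pool combines is not given, so the errors measure the spread between pools. The array reads mouse transcripts and does not check the human transgene.

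Values are log2 expression per probe set. The array medians ran from 5.05 to 5.15, and signals near or below these are called dim, since there signal is hard to tell from background. Transgenic replicate 4 was the least like its group: its correlation with the other arrays of the group averaged 0.974, against 0.980 to 0.983 for the other transgenic and 0.986 to 0.988 for the wild-type arrays. The cDC genes Flt3, Zbtb46, H2-Ab1 and Ccr7 were bright in both groups (means of at least 8.37 in transgenic and 8.79 in wild-type arrays). The genes of the sorting markers CD103 (Itgae) and CD11b (Itgam) were dim, at 5.40 and 5.58 in transgenic and 5.66 and 5.57 in wild-type arrays.

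Matrix metalloproteinases are zinc-dependent proteases that are secreted or held at the cell surface, and cells make most of them as inactive precursors. They cut matrix proteins and also adhesion molecules, cytokines and their receptors, and tissue inhibitors of metalloproteinases (TIMPs) block them by binding at the active site. Dendritic cells are known to use such proteases when they cross basement membranes on the way to lymph nodes, and in the mouse small intestine Mmp7 is known from Paneth cells, where it activates defensin precursors.

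Only Mmp7 and Mmp25 of the 10 genes had a bright signal on all 8 arrays, and they differed between the groups in opposite directions. The 250 bases upstream of their transcription starts are therefore shown, from RefSeq on GRCm38.p6, 5′ to 3′ on the gene's strand, with capitals for 3 searched motifs: TGANTCA, bound by AP-1 factors such as Fos and Jun, AGGAAG, a core bound by ETS factors, and TATAAA, the TATA box.
Mmp7 (chr9:7691840-7692089, + strand): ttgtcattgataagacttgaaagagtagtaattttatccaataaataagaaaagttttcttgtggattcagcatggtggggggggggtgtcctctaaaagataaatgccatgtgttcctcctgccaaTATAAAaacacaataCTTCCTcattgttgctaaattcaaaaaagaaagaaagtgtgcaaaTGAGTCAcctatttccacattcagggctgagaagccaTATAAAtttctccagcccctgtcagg
Mmp25 (chr17:23645270-23645519, - strand): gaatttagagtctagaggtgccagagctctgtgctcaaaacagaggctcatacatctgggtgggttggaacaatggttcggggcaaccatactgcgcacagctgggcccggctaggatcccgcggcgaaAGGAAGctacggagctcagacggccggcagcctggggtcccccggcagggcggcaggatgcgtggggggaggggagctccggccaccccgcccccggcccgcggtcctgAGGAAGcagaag

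Both strands were searched, and no match overlaps another. The Mmp7 window held the AP-1 letters 63 to 57 bases before the start, the ETS core on the opposite strand 108 to 103 bases before it, and the TATA letters at 123 to 118 and at 26 to 21 bases before it. RefSeq lists 2 starts for Mmp7, and the outer one is shown. The Mmp25 window held the ETS core at 121 to 116 and at 12 to 7 bases before the start, and no AP-1 or TATA letters. Of 32841 promoter windows of this length, 6.75% held the AP-1 letters, 29.5% the ETS core and 12.4% the TATA letters. Among the 8 described genes in the RefSeq table, Mmp7, Mmp12 and Mmp13 held the AP-1 letters. The ETS core was found in 7 of the 8, all but Timp2, and the TATA letters in Mmp7 and Mmp13. A gene was counted here if the window of any of its listed starts held the letters. The percentages above are shares of single windows, so the gene counts cannot be set directly against them. A match is a string of letters and not a measured binding site.

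Mmp7, matrilysin, a secreted protease that lacks the hemopexin domain most of the family carries, had 11.52, 11.32, 11.89 and 11.59 in transgenic replicates 1 to 4, against 8.43, 9.001, 8.80 and 8.47 in wild-type replicates 1 to 4. The lowest transgenic array lay 2.32 above the highest wild-type array, and the groups did not overlap. The means were 11.58 ± 0.24 in transgenic and 8.67 ± 0.27 in wild-type cells (SD, n = 4 each). Mmp7 rose 7.51-fold, with a 95% interval of 5.83 to 9.67, the third-highest log2 difference of all genes (2.91, SE 0.16). In a pool of sorted cells, more cells that make a transcript and more transcript in each cell cannot be told apart.

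The other probe set annotated to Mmp7 did not show this difference. It had 7.10, 6.80, 6.70 and 7.44 in transgenic replicates 1 to 4, against 5.65, 6.72, 7.73 and 7.02 in wild-type replicates 1 to 4. The wild-type arrays spanned the whole transgenic range on this set. Its log2 difference was 0.23 (SE 0.37, 95% interval -0.58 to 1.04). With the mean over the 2 sets the log2 difference of Mmp7 was 1.57 (SE 0.23), against 2.91 on the brighter set, so the size of the rise depends on the set used. Both carry the same gene symbol, but RefSeq also places the long noncoding RNA gene AV064505 across Mmp7, and no tested probe set names that gene. Which transcripts each set reads was not tested.

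**Figure D1:**
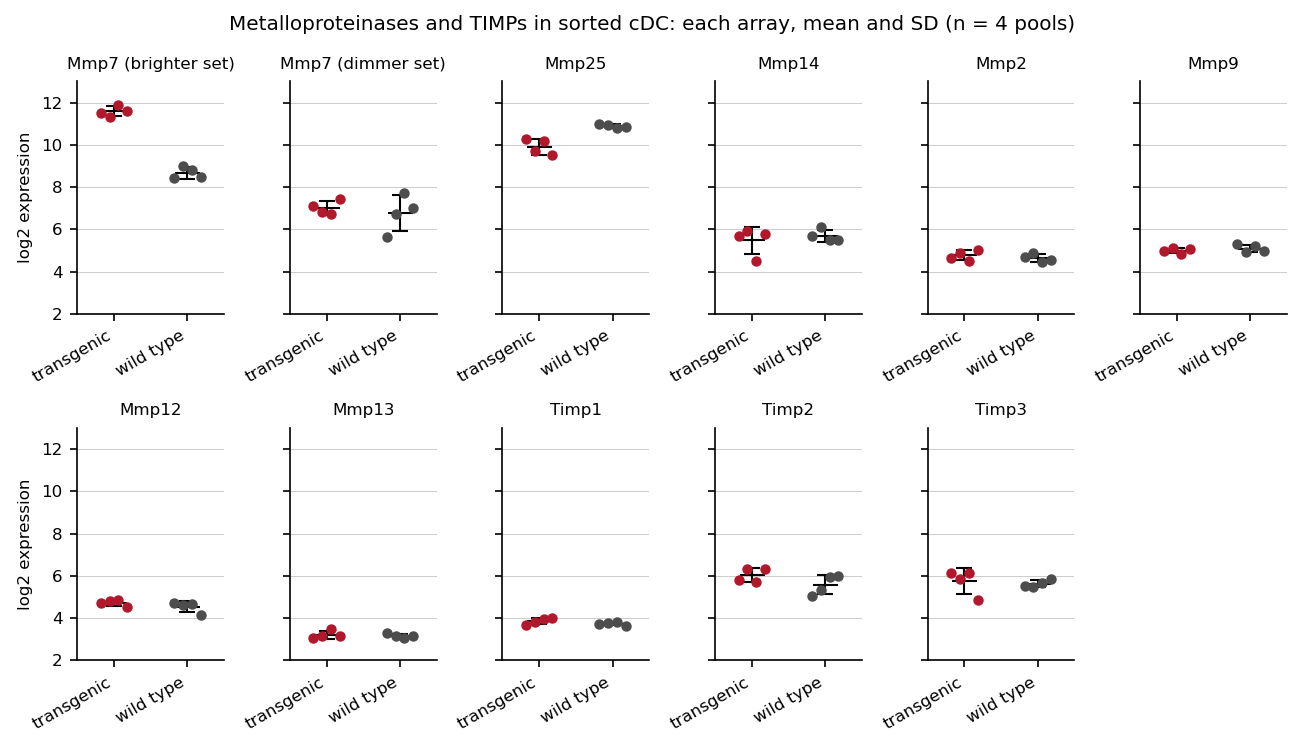
Log2 expression (vertical axis) of each probe set of the 10 genes on the 4 transgenic and 4 wild-type arrays; points are arrays, bars the mean and SD. Groups are apart on the brighter Mmp7 set (11.32 to 11.89 in transgenic, 8.43 to 9.001 in wild type) and on Mmp25 (9.51 to 10.30 in transgenic, 10.80 to 10.98 in wild type), and overlap on the other 9 panels.

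Mmp7 lies at the end of a row of metalloproteinase genes on mouse chromosome 9, and none of its measured neighbours on either side passed. The 5 measured genes on one side, Mmp20, Mmp27, Mmp8, Mmp10 and Mmp1a, were dim, with means of 3.01 to 5.08 in transgenic and 2.86 to 5.17 in wild-type arrays. Their log2 differences ran from -0.08 (Mmp10) to 0.26 (Mmp20, SE 0.17), and none passed in limma (adjusted p of 0.586 or more). On the other side, Tmem123 was bright, at 12.79 ± 0.07 in transgenic and 12.80 ± 0.06 in wild-type cells (SD, n = 4 each). Birc2, which encodes an inhibitor of apoptosis protein, was at 11.79 ± 0.04 in transgenic and 11.79 ± 0.12 in wild-type cells (SD, n = 4 each). Birc3, its paralog, had a log2 difference of -0.31 (SE 0.12; limma adjusted p = 0.296). Yap1, the effector of the Hippo pathway, was at 0.02 (SE 0.13) and Cfap300 at -0.27 (SE 0.18), and neither passed.

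**Figure D2:**
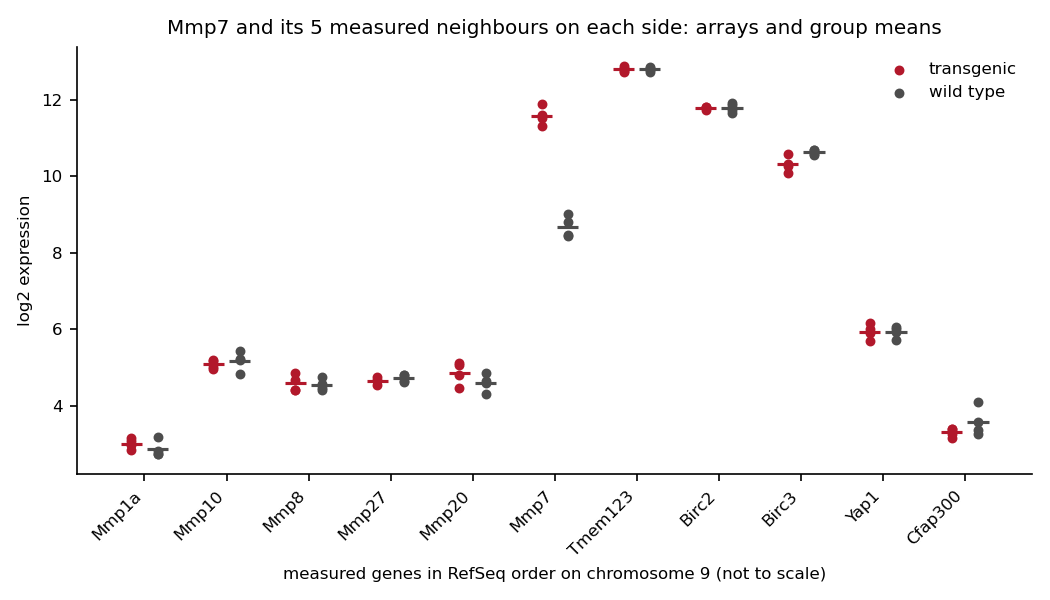
Log2 expression (vertical axis) of Mmp7 and its 5 measured neighbours on each side, in RefSeq order on chromosome 9 (horizontal axis, not to scale); points are arrays and lines are group means, transgenic left and wild type right of each tick. Mmp7 is at 11.58 in transgenic and 8.67 in wild-type arrays, while the neighbours' group means differ by at most 0.31.

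Mmp25, a metalloproteinase anchored in the membrane by a lipid tail and known in humans from neutrophils, had 10.30, 9.69, 10.16 and 9.51 in transgenic replicates 1 to 4, against 10.98, 10.92, 10.80 and 10.87 in wild-type replicates 1 to 4. All 4 transgenic arrays lay below every wild-type array, with replicates 2 and 4 lowest. The means were 9.92 ± 0.37 in transgenic and 10.89 ± 0.08 in wild-type cells (SD, n = 4 each). Mmp25 fell to 0.508 of the wild-type level, with a 95% interval of 0.390 to 0.661 (log2 difference -0.98, SE 0.17; limma adjusted p = 0.0234). The transgenic arrays varied more than the wild-type ones.

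The call of Mmp25 was lost without wild-type replicates 1, 2, 3 or 4 (limma adjusted p = 0.0776, 0.0735, 0.0670 and 0.0625) or transgenic replicate 2 (adjusted p = 0.0622), while the log2 difference stayed between -1.11 and -0.84 over all arrays left out in turn. Without transgenic replicate 4 it was -0.84 (SE 0.15; limma adjusted p = 0.0301). The mean over the 11 neutrophil markers was 4.49 to 4.71 on transgenic and 4.44 to 4.59 on wild-type arrays. Of the 11, 8 had a positive log2 difference (median 0.07), and 0 passed (limma; 1 had an unadjusted p below 0.05). That was Csf3r, a growth factor receptor, at 5.83 in transgenic and 5.25 in wild-type cells (log2 difference 0.58, SE 0.16; limma adjusted p = 0.111). Cxcr2, a chemokine receptor, was at 5.86 in transgenic and 6.16 in wild-type cells. The defining markers S100a8 and Ly6g were dim, S100a8 at 3.59 in transgenic and 3.70 in wild-type cells and Ly6g at 4.09 in transgenic and 4.35 in wild-type cells. The part of neutrophils in the fall of Mmp25 was not tested. Here and below, counts with an unadjusted p below 0.05 are given without their share over all genes, and nothing is read from them.

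Of the 10 genes, Mmp7 rose, Mmp25 fell and 8 did not pass the limma threshold of 0.05, against 1.69% of all 22180 genes that passed, 0.839% higher and 0.848% lower in transgenic arrays. The arrays of the groups did not overlap for the same 2 genes, against 8.94% of all genes. Since the genes were chosen with this comparison known, nothing is read from these counts. The median log2 difference of the 10 genes was 0.12, with 7 above 0, and that of all genes was 0.00.

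The gelatinases, which cut denatured collagen and basement membrane collagen, were dim in both groups. Mmp9, which mouse dendritic cells are known to use in migration, had 4.96, 5.10, 4.83 and 5.07 in transgenic replicates 1 to 4, against 5.28, 4.91, 5.20 and 4.96 in wild-type replicates 1 to 4. Mmp2 had 4.65, 4.89, 4.51 and 5.02 in transgenic replicates 1 to 4, against 4.70, 4.86, 4.48 and 4.53 in wild-type replicates 1 to 4. The groups overlapped on both genes. The log2 difference of Mmp9 was -0.10 (95% interval -0.37 to 0.18) and that of Mmp2 was 0.13 (95% interval -0.19 to 0.44). These intervals leave out a doubling or a halving of the measured signal, but a signal this near background says little about the transcript.

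Mmp14, a membrane-bound protease that activates the precursor of Mmp2, had 5.70, 5.91, 4.51 and 5.79 in transgenic replicates 1 to 4, against 5.71, 6.10, 5.49 and 5.48 in wild-type replicates 1 to 4. Transgenic replicate 3 lay below all other arrays, and the other 3 transgenic arrays lay inside the wild-type range. The log2 difference was -0.22 (SE 0.29), and 0.11 (SE 0.17) without transgenic replicate 3, so its sign rests on that array. Mmp12, the macrophage elastase, had 4.72, 4.81, 4.86 and 4.52 in transgenic replicates 1 to 4, against 4.72, 4.62, 4.68 and 4.16 in wild-type replicates 1 to 4. Mmp13, a collagenase, had 3.04, 3.13, 3.47 and 3.15 in transgenic replicates 1 to 4, against 3.28, 3.14, 3.06 and 3.16 in wild-type replicates 1 to 4. Both overlapped between the groups, with log2 differences of 0.19 (95% interval -0.14 to 0.51) for Mmp12 and 0.04 (95% interval -0.22 to 0.31) for Mmp13.

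None of the 3 inhibitors passed. Timp2, which also takes part in the activation of the Mmp2 precursor by Mmp14, had 5.79, 6.33, 5.73 and 6.34 in transgenic replicates 1 to 4, against 5.07, 5.31, 5.95 and 5.98 in wild-type replicates 1 to 4. Transgenic replicates 2 and 4 lay above every wild-type array, and the other 2 lay inside the wild-type range. Its log2 difference of 0.47 (SE 0.23, 95% interval -0.05 to 0.99) had the highest value of the 10 genes after Mmp7 and did not pass (limma adjusted p = 0.438).

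Timp3, an inhibitor that binds to the matrix and also blocks ADAM17, had 6.15, 5.84, 6.12 and 4.87 in transgenic replicates 1 to 4, against 5.53, 5.45, 5.68 and 5.87 in wild-type replicates 1 to 4. Transgenic replicate 4 was the lowest of all 8 arrays, and transgenic replicates 1 and 3 were the highest. The log2 difference was 0.12 (SE 0.25), 0.41 (SE 0.14; limma adjusted p = 0.186) without transgenic replicate 4, and -0.02 and -0.01 without transgenic replicates 1 and 3. Timp1, a secreted inhibitor of most of the family, was dim throughout, with 3.67, 3.81, 3.95 and 3.98 in transgenic replicates 1 to 4, against 3.74, 3.77, 3.79 and 3.64 in wild-type replicates 1 to 4. Its groups overlapped, with a log2 difference of 0.12 (95% interval -0.13 to 0.36).

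**Figure D3:**
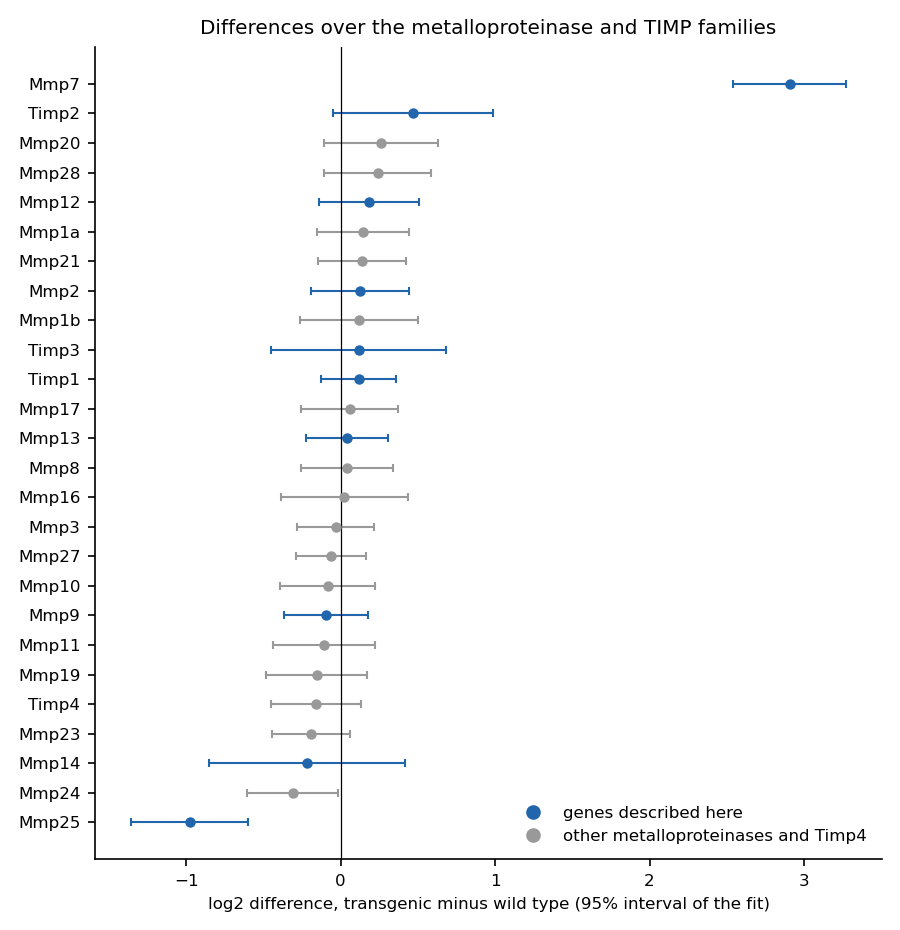
Log2 difference, transgenic minus wild type (horizontal axis), with the 95% interval of the limma fit, for the 10 genes and for 15 further metalloproteinases and Timp4, ordered by difference. Mmp7 at 2.91 and Mmp25 at -0.98 stand apart from the others, which lie between -0.31 and 0.47.

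Of the 15 other metalloproteinases measured, 0 rose and 0 fell in limma, 1 had an unadjusted p below 0.05, and the median log2 difference was 0.02. That gene was Mmp24, a membrane-bound protease, at 5.73 ± 0.21 in transgenic and 6.04 ± 0.14 in wild-type cells (SD, n = 4 each), a log2 difference of -0.31 (limma adjusted p = 0.343). Mmp23 had a bright signal, 9.64 to 9.97 on transgenic and 9.85 to 10.10 on wild-type arrays, and its log2 difference of -0.19 (95% interval -0.45 to 0.06) did not pass. The highest were Mmp20 (0.26) and Mmp28 (0.24, SE 0.16), both dim.

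Among proteins that inhibit, activate or dock metalloproteinases, 18 were measured, 0 rose and 0 fell in limma, and 2 had an unadjusted p below 0.05. These were Plat, the tissue plasminogen activator, with a log2 difference of -0.53 (SE 0.21; limma adjusted p = 0.284), and Cd44, a hyaluronan receptor that holds some metalloproteinases at the cell surface, at -0.40 (SE 0.16; limma adjusted p = 0.309). The highest statistics were those of Spock2 (log2 difference 0.22) and Pcsk5 (0.07). The list's median was -0.03, with 13 members below 0.

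The ADAM and ADAMTS families are related zinc proteases, many of which shed proteins from the cell surface. Of 18 measured, Adam8 fell, 0 rose and 17 did not pass. Adam8, a leukocyte member, had 10.21, 9.85, 10.43 and 9.52 in transgenic replicates 1 to 4, against 10.83, 11.10, 10.88 and 10.76 in wild-type replicates 1 to 4. As with Mmp25, transgenic replicates 2 and 4 were the lowest and the groups did not overlap. This order of the transgenic arrays is not particular to these proteases. Replicates 2 and 4 were also the lowest transgenic arrays for Adam19, Adam23, Cd44, Elf4 and Stat3. The same held for the cDC gene Zbtb46, with 8.51, 8.07, 8.80 and 8.11 in transgenic replicates 1 to 4. It did not hold for Adam9, which was lowest on transgenic replicates 2 and 3. The log2 difference of Adam8 was -0.89 (SE 0.19; limma adjusted p = 0.0458). That call was lost without any of the 8 arrays but transgenic replicate 3 (limma adjusted p of 0.0532 to 0.128), with arrays centred on their median (0.0667) and with the replicate number as a block (0.0730).

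Adam9 had a log2 difference of -0.47 (SE 0.13; limma adjusted p = 0.115) and Adam17, the main shedding enzyme of TNF, one of -0.32 (SE 0.10; limma adjusted p = 0.148), and their arrays did not overlap either. The same held for Adamts12, which was dim (log2 difference -0.30, SE 0.10; limma adjusted p = 0.209). The groups did not overlap for 4 of the 18, against 8.94% of all genes, and nothing is read from this count. Adam10, the closest relative of Adam17, was at 0.09 (SE 0.10), and Adamts10, the highest, at 0.23. The median over the 18 was -0.06.

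Among 25 measured substrates of metalloproteinases, Tnf fell, 0 rose and 24 did not pass, with a median log2 difference of -0.10. Tnf, whose membrane form several of these proteases can cut, had 6.43, 7.22, 7.16 and 7.32 in transgenic replicates 1 to 4, against 8.31, 8.09, 8.68 and 8.75 in wild-type replicates 1 to 4. Every transgenic array lay below every wild-type array, and the log2 difference was -1.43 (SE 0.21; limma adjusted p = 0.0128). The highest were Cdh1, which encodes E-cadherin and was dim (0.18, SE 0.14), and Nid1, the basement membrane protein nidogen. Nid1 had 9.66, 9.81, 8.27 and 5.87 in transgenic replicates 1 to 4, against 6.78, 7.64, 7.88 and 7.71 in wild-type replicates 1 to 4. It was above all wild-type arrays on 3 transgenic arrays and below all of them on transgenic replicate 4 (log2 difference 0.90, SE 0.73; limma adjusted p = 0.683).

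Of 18 measured transcription factors known to act on metalloproteinase promoters, Ets2 rose, 0 fell and 17 did not pass, with a median log2 difference of 0.05. Ets2, a factor that binds the ETS core, had 11.18, 10.74, 10.87 and 10.38 in transgenic replicates 1 to 4, against 9.76, 9.58, 9.23 and 9.35 in wild-type replicates 1 to 4. The groups did not overlap, and Ets2 rose 2.48-fold (log2 difference 1.31, SE 0.18; limma adjusted p = 0.00889). Its relative Ets1 had a log2 difference of 0.50 (SE 0.16; limma adjusted p = 0.175) and lay higher on all 4 transgenic arrays.

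The AP-1 genes did not pass. Fos was at -0.01 (SE 0.19), Jun at 0.03 (SE 0.24), Junb at 0.15 (SE 0.14) and Jund at 0.16 (SE 0.13), and Fosb at 0.54 (SE 0.18; limma adjusted p = 0.199). The lowest were Rela, a subunit of NF-kB (-0.49, SE 0.15; limma adjusted p = 0.142), and Elf4, also an ETS factor (-0.36, SE 0.13; limma adjusted p = 0.224). For Rela and Elf4 every transgenic array lay below every wild-type array, so the measured ETS factors did not all go the way of Ets2. Whether any of these factors acts on Mmp7 or Mmp25 in these cells was not measured.

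**Figure D4:**
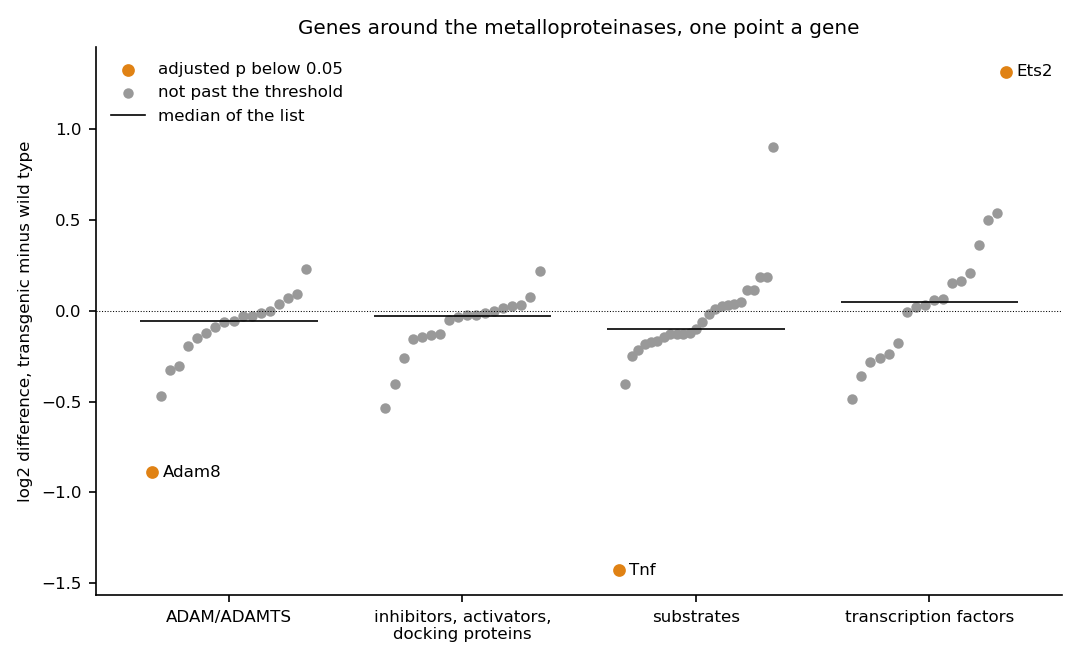
Log2 difference, transgenic minus wild type (vertical axis), of each gene of 4 lists (horizontal axis), ordered within a list; lines are list medians and orange points are genes past the limma threshold. Adam8 (-0.89) and Tnf (-1.43) fell and Ets2 (1.31) rose, while the list medians lie between -0.10 and 0.05.

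Markers of cells that are known sources of Mmp7 were measured beside it, and their part in its rise was not tested. Of 9 measured epithelial and Paneth cell markers, 0 passed in limma, 0 had an unadjusted p below 0.05, and the list mean ran from 5.18 to 5.40 on transgenic and from 5.22 to 5.35 on wild-type arrays. The Paneth cell defensin Defa24 was dim, at 3.71 in transgenic and 3.88 in wild-type cells, and Lyz1, Paneth cell lysozyme, was at 7.51 ± 0.68 in transgenic and 7.35 ± 0.56 in wild-type cells (SD, n = 4 each). Probes of Lyz1 may also read its near-identical copy Lyz2 of myeloid cells. Epcam was at 7.22 in transgenic and 6.96 in wild-type cells (log2 difference 0.26, SE 0.20, limma adjusted p = 0.656). Cldn4 was dim, at 5.02 and 4.74 (log2 difference 0.28, SE 0.13, limma adjusted p = 0.389). Its groups narrowly did not overlap, with the lowest transgenic array at 4.810 and the highest wild-type array at 4.809. Over the list, 5 log2 differences were positive and 4 negative, with a median of 0.04.

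Of 11 macrophage markers, Adgre1 rose and 10 did not pass (2 had an unadjusted p below 0.05 in limma), the median log2 difference was 0.02, and the list mean was 5.17 to 5.27 on transgenic and 5.05 to 5.38 on wild-type arrays. Adgre1, a macrophage surface receptor, was at 7.41 ± 0.30 in transgenic and 6.12 ± 0.33 in wild-type cells (SD, n = 4 each; limma adjusted p = 0.0128). The scavenger receptor gene Marco, the other marker with an unadjusted p below 0.05, had a log2 difference of -0.62 (SE 0.25; limma adjusted p = 0.301), and Timd4 had -0.48 (SE 0.26). The complement gene C1qa was at 6.27 in transgenic and 6.44 in wild-type cells. C1qb (6.55 in transgenic and 6.44 in wild-type cells) and C1qc (5.67 and 5.37) went the other way. The mannose receptor gene Mrc1 was dim, at 4.16 in transgenic and 4.15 in wild-type cells. Of 7 measured monocyte markers 0 passed (limma; 3 had an unadjusted p below 0.05), with a list mean of 6.84 to 8.01 on transgenic and 6.48 to 6.94 on wild-type arrays. The log2 difference was positive for 6 of the 7, with a median of 0.53. Cd14, a receptor for bacterial lipopolysaccharide, had 0.74 (SE 0.26; limma adjusted p = 0.226) and Cx3cr1, the fractalkine receptor, had 0.56 (SE 0.215; limma adjusted p = 0.276).

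The monocyte gene Ly6c2 had 8.28, 10.38, 5.81 and 7.11 in transgenic replicates 1 to 4, against 6.04, 5.46, 6.83 and 6.02 in wild-type replicates 1 to 4. It lay above every wild-type array on transgenic replicates 1, 2 and 4 and inside the wild-type range on replicate 3 (log2 difference 1.81, SE 0.77; limma adjusted p = 0.346). Stromal markers, which go with Mmp2, Mmp14 and the TIMPs in other tissues, had a list mean of 4.86 to 5.20 on transgenic and 5.07 to 5.32 on wild-type arrays. Of these, 0 of 10 passed (limma; 0 had an unadjusted p below 0.05), with 7 log2 differences negative and 3 positive (median -0.04). Pdgfra was at 4.16 in transgenic and 4.17 in wild-type cells. Brighter were Thy1, at 6.43 in transgenic and 7.02 in wild-type cells (log2 difference -0.59, SE 0.41), and Cxcl13, at 6.895 and 7.46 (-0.57, SE 0.48). Wild-type replicate 4 had 9.20 for Cxcl13, against 6.93, 6.60 and 7.13 in wild-type replicates 1 to 3. Of 8 endothelial markers 0 passed (limma; 3 had an unadjusted p below 0.05), with a list mean of 4.92 to 5.25 on transgenic and 5.03 to 5.25 on wild-type arrays. Of these 3, Kdr (log2 difference -0.55, SE 0.20) and Cdh5 (-0.40, SE 0.13) were lower in transgenic arrays, and Vwf (0.25, SE 0.11) was higher. Cdh5 and Vwf were dim.

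Of 10 cDC markers 0 passed (limma; 3 had an unadjusted p below 0.05), and the list mean was 8.66 to 9.13 on transgenic and 8.94 to 9.06 on wild-type arrays. Their log2 differences were positive for 5 and negative for 5, with a median of -0.05. The 3 with an unadjusted p below 0.05 were all lower in transgenic arrays. They were Zbtb46, Flt3 and H2-Ab1 (log2 difference -0.25, SE 0.11; limma adjusted p = 0.352). The groups did not overlap for Flt3 and H2-Ab1, against 8.94% of all genes. The lowest statistics were those of Zbtb46, a cDC transcription factor (log2 difference -0.42, SE 0.16; limma adjusted p = 0.283), and Flt3, a growth factor receptor (-0.37, SE 0.16; limma adjusted p = 0.350). The highest were those of Sirpa (0.25, SE 0.15) and Itgax, which encodes CD11c (0.17, SE 0.15). The part of cDC content in the differences above was not tested.

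Genes were ranked by the likeness of their values to those of Mmp7 over the 8 arrays. Left out of the ranking were predicted and clone-named genes, small RNAs, olfactory and vomeronasal receptors, and immunoglobulin and T cell receptor segments. The most alike were Kiz (Pearson r 0.992), Npy1r, Scara3 and Ctsa (0.984 each) and Rpl22 (0.977). The group difference sets most of such a correlation, so the deviations from the group means were compared too, with r of 0.916 for Kiz, 0.86 for Scara3, 0.667 for Ctsa, 0.376 for Npy1r and -0.035 for Rpl22. Kiz, which encodes a centrosomal protein, had 7.27, 7.32, 7.71 and 7.48 in transgenic replicates 1 to 4, against 5.98, 6.34, 6.11 and 5.84 in wild-type replicates 1 to 4. Like Mmp7, it was highest on transgenic replicate 3 and wild-type replicate 2. The genes were picked by their r over the 8 arrays, which already includes these deviations, so the second r is not a separate check. These correlations describe 8 arrays that share a protocol and a normalization and are given without a test.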

How the data were processed

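The deposited values are log2 expression per probe set from 8 arrays, made by the authors in Partek by the RMA method, per the submitters' processing notes, without versions. RMA makes the arrays' distributions alike, so a shift of all genes would not be seen, and it can compress bright signals. The table has 34390 probe sets, of which the 23521 annotated to a single gene were used, giving 22180 genes with no filter on signal.

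Transgenic minus wild type was fitted with limma 3.58.1 (lmFit, eBayes) in R 4.3.3, and p-values were adjusted by Benjamini-Hochberg over the 22180 genes and called below 0.05. The genes, lists and tests were chosen with earlier results of these data known. The procedure was tested on simulated data. Named were the 10 genes, list members past the threshold, the 2 highest and 2 lowest statistics of a pathway list, 5 neighbours on each side and the 5 genes most like Mmp7; AP-1 genes, Adam10, Adam17, Ly6c2, Lyz1 and other markers that did not pass were added after their values were seen. Alternatives were other moderation, filters, normalization, probe set rules, array weights (statmod 1.5.0), a replicate block and leaving out each array. Arrays have no read depth, so their number limits precision. Figures used matplotlib 3.10.9 in Python 3.11.15.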

Additional observations from a re-analysis of the deposited data

Results flagged for a closer look

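Among 22 groups of 4 arrays (11 probe sets in each genotype), 1 held an array far from the others of its group, and about 1 in 20 such groups is marked by chance. It was Mmp14 on transgenic replicate 3, at 4.51, with the nearest transgenic array at 5.70, a gap that was 0.851 of the group's range.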

How the results depend on the processing

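The log2 difference of Mmp7, which chose the gene and is given as a description, ran from 1.57 (mean over its probe sets) to 3.02 over 18 alternatives. The dimmer Mmp7 set alone, at 0.23, is not among these alternatives. Mmp25 passed under 13 of 18 and Adam8 under 9 of 18, each with a negative log2 difference throughout, while Ets2, Tnf and Adgre1 passed under all 18. None of the 8 other genes passed under any alternative run. The number of the 10 genes past the threshold was 2 under every alternative that kept all arrays and 1 to 2 with an array left out. Filters on dim genes removed 5 and 8 of the 10. Over all genes the count was 374, 106 to 379 with an array left out, and 187 with the replicate number as a block. Same-numbered arrays had correlations of -0.032 to 0.079 between their deviations from the group means, so no pairing by number was seen. The labels do not say whether the numbers mark pairs, and these correlations cannot exclude it. The block changed no call among the 10 genes. Dim signals limit Mmp2, Mmp9, Mmp12, Mmp13 and Timp1. The limit also applies to Mmp14 (means of 5.48 in transgenic and 5.69 in wild-type arrays), Timp3 (5.75 and 5.63) and Timp2 in wild-type arrays (5.58). Their signals were about as low as those of Itgae, Itgam and Cdh1, which are called dim above.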
